A study of Sus scrofa with 13 samples.

Results

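Excitation-contraction coupling is the step by which an electrical signal at the muscle fibre surface releases calcium inside the fibre. At the triad, where a T-tubule meets the sarcoplasmic reticulum, the dihydropyridine receptor (DHPR) senses voltage and opens the ryanodine receptor RYR1, the calcium release channel of skeletal muscle. Calcium is then pumped back into the sarcoplasmic reticulum and held there by buffer proteins. RYR1 is also known as the halothane gene of Pietrain pigs, in which a stress syndrome with abnormal calcium release has been described. The labels gave no RYR1 genotype, and the genotypes of the pigs were not analysed here.

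The transcripts were chosen by name as 10 genes of excitation-contraction coupling, called triad genes below for short. They were RYR1, the DHPR subunits CACNA1S, CACNA2D1 and CACNB1, and the triad proteins CASQ1, TRDN, JPH1 and STAC3. SRL and the calcium pump ATP2A1, both of the sarcoplasmic reticulum, were the others. Of the 10 genes, 9 matched a gene of the count tables, out of 25322 gene identifiers in all. STAC3 matched no identifier and was not analysed here. The study asked which muscle transcripts differ between pigs with high and low loin weight in 2 breeds. RNA came from the longissimus lumborum, the loin muscle, of 13 female pigs aged 6 months, sampled straight after slaughter. In Hampshire there were 3 pigs with high loin weight (Hampshire high, pigs 8, 9 and 10) and 3 with low loin weight (Hampshire low, pigs 1, 2 and 3). In Pietrain there were 4 pigs with high loin weight (Pietrain high, pigs 1, 2, 6 and 7) and 3 with low loin weight (Pietrain low, pigs 3, 5 and 8). No treatment was applied, and the same pig number in both breeds names different animals. Each breed was deposited as its own table, so that breed and any handling that differed by breed cannot be told apart.

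The counts of reads per pig summed to between 11312755 and 20134612 (median 14055410), and the 9 genes took between 1.32% and 2.84% of them. Levels are given as CPM, counts relative to library size and scaled between the 13 pigs by the TMM method, in the order of the pig numbers above. CPM is not corrected for transcript length, so that levels are compared between pigs and not between genes. All 9 genes passed the filter on low counts in all comparisons, and the smallest count of any of them in a pig was 166. A gene was called when its Benjamini-Hochberg adjusted p over all tested genes was under 0.05 in edgeR's quasi-likelihood test and its fold change was at least 1.2. The tissue carried its muscle markers in all pigs, with 5 matched skeletal muscle markers and 4 matched fast fibre markers all detected. The summed level of 5 slow fibre markers ranged from 11699.6 to 17800 CPM in the Hampshire high group and from 2834 to 6607 CPM in those with low loin weight. In Pietrain it was 1471, 11159, 747 and 11017 CPM in the high group and 8271, 27.7 and 6370.1 CPM in the low group, where pig 5 stood apart from the others.

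The voltage sensor and its partners in the DHPR did not move together. CACNA1S, the pore-forming voltage-sensing subunit, had levels of 485, 567 and 552 CPM in the Hampshire high group and of 469.6, 701 and 621 CPM in those with low loin weight. In Pietrain the levels were 700.3, 435, 421 and 817 CPM in the high group and 472, 552 and 420.0 CPM in the low group. All neighbouring groups overlapped in the order of their means, and CACNA1S passed the test in none of the comparisons. CACNB1, the beta subunit that carries the complex to the membrane, had mean levels of 254 ± 49.6 CPM (SD, n = 3) in Hampshire high, 216 ± 15.3 (n = 3) in Hampshire low, 192 ± 30.9 (n = 4) in Pietrain high and 182 ± 14.4 (n = 3) in Pietrain low. Neighbouring groups in that order overlapped. Hampshire lay above Pietrain at low loin weight (at least 204.7 against at most 198.7 CPM) and at high loin weight (at least 224.0 against at most 220.6 CPM). CACNB1 was not called in any comparison.

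CACNA2D1, the alpha-2/delta subunit of the channel, showed the largest differences among the 9 genes. Its levels were 21.5, 15.1 and 13.9 CPM in Hampshire high and 101, 101 and 115 CPM in Hampshire low. In Pietrain they were 373, 208, 330.3 and 168 CPM in the high group and 305, 295 and 324 CPM in the low group. The Hampshire groups stood apart from each other and from both Pietrain groups, whereas the Pietrain groups overlapped. Among Pietrain pigs with high loin weight, pigs 2 and 7 lay below all pigs of the low group.

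RYR1 was lowest in Hampshire high and highest in Pietrain high. Its levels were 2016, 1351 and 2354 CPM in Hampshire high and 2079, 2765 and 2801 CPM in Hampshire low. In Pietrain they were 4632, 3462, 3583 and 4199 CPM in the high group and 3147, 3354 and 2786 CPM in the low group. The 4 Pietrain pigs with high loin weight lay above all other pigs. The means fell from Pietrain high (3969 ± 547 CPM, SD, n = 4) through Pietrain low (3095 ± 288, n = 3) and Hampshire low (2548 ± 407, n = 3) to Hampshire high (1907 ± 510.0, n = 3). Pietrain low overlapped with Hampshire low, and Hampshire low with Hampshire high.

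**Figure D1:**
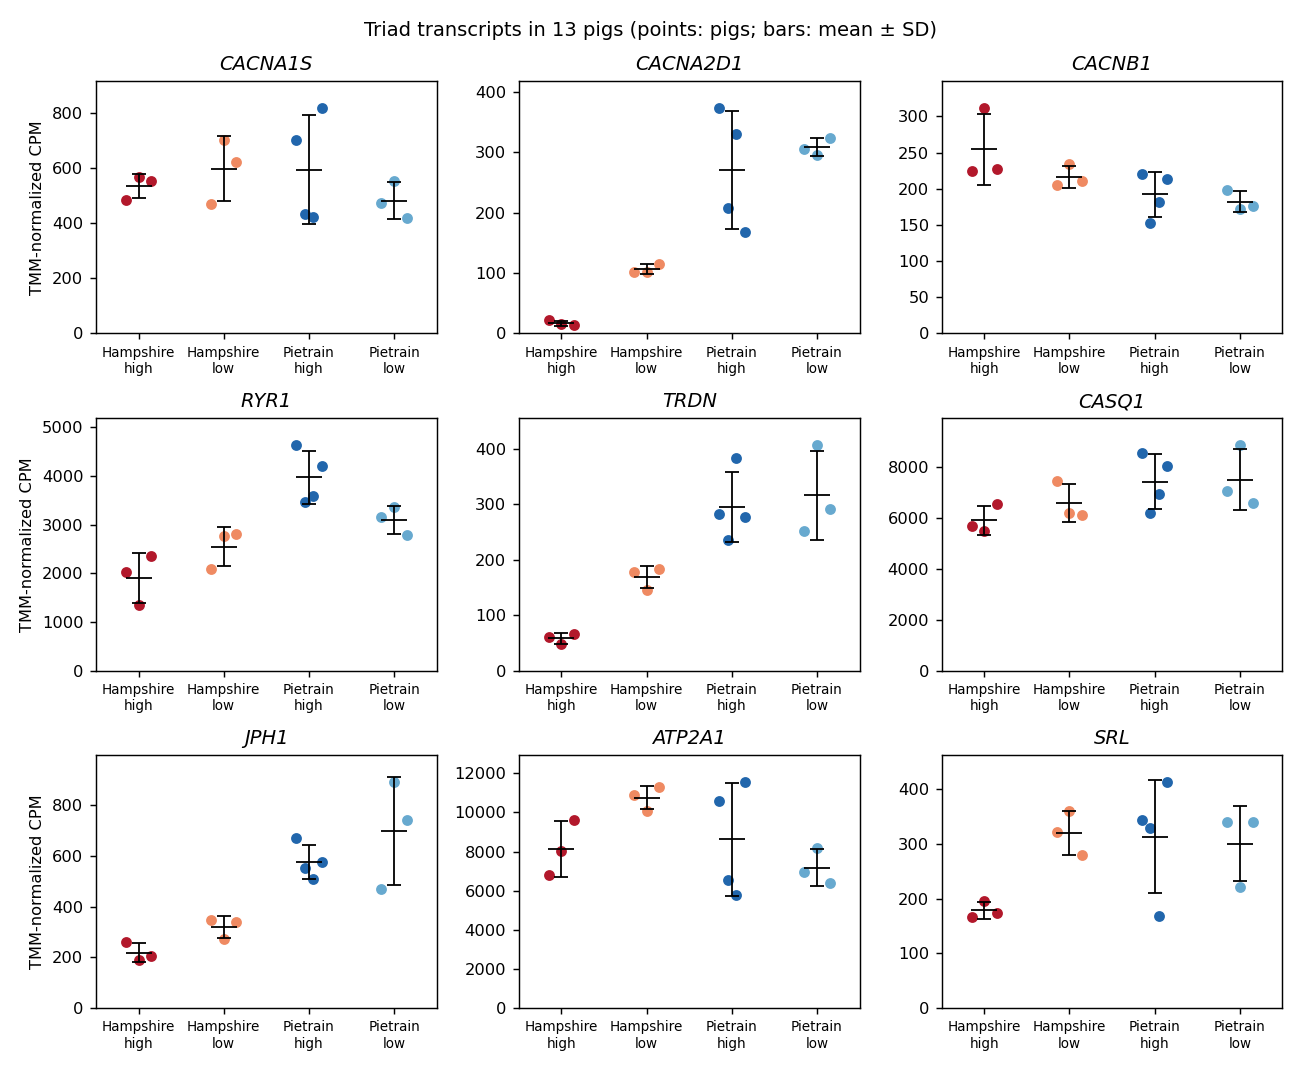
Levels of the 9 triad transcripts in TMM-normalized CPM (vertical axes, each from 0) in the 4 groups of pigs. Points are pigs and bars are the mean ± SD. CACNA2D1, TRDN and JPH1 lie lowest in the 3 Hampshire pigs with high loin weight, whereas the groups overlap for CACNA1S.

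Triadin (TRDN) anchors calsequestrin to the release channel. The group means of its transcript came in the same order as those of CACNA2D1, JPH1 and CASQ1. TRDN levels were 61.3, 47.7 and 65.3 CPM in Hampshire high and 178, 145 and 183 CPM in Hampshire low. In Pietrain they were 283, 235, 384 and 276 CPM in the high group and 252, 407 and 291 CPM in the low group. All 3 Hampshire pigs with high loin weight lay below all other pigs, and the Pietrain groups overlapped. CASQ1, the calcium buffer that triadin holds near the channel, kept narrow ranges, with means of 5910.1 ± 573 CPM (SD, n = 3) in Hampshire high, 6599 ± 747 (n = 3) in Hampshire low, 7433 ± 1066 (n = 4) in Pietrain high and 7501 ± 1204 (n = 3) in Pietrain low. Neighbouring groups overlapped for CASQ1, and it was not called in any comparison.

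Junctophilin 1 (JPH1) ties the T-tubule to the sarcoplasmic reticulum. Its levels were 260.4, 190.0 and 204 CPM in Hampshire high, 348, 270.2 and 339 CPM in Hampshire low, 669, 552, 510.3 and 578 CPM in Pietrain high, and 469, 891 and 741 CPM in Pietrain low. All Hampshire pigs lay below all Pietrain pigs, and the Hampshire groups did not overlap. Sarcalumenin (SRL), a calcium-binding glycoprotein of the sarcoplasmic reticulum, had levels of 166, 195 and 174 CPM in Hampshire high and 322, 359.8 and 279 CPM in Hampshire low. In Pietrain SRL was at 344, 330.1, 168 and 413 CPM in the high group and at 339.7, 221 and 339.9 CPM in the low group. Pietrain high pig 6 was the 1 pig outside Hampshire high with SRL in the range of that group.

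ATP2A1 encodes SERCA1, the calcium pump of fast fibres. Its levels were 6780.4, 8032 and 9625 CPM in Hampshire high and 10907, 10095 and 11291 CPM in Hampshire low. In Pietrain they were 10609, 6549, 5764 and 11543 CPM in the high group and 6956, 8194 and 6369 CPM in the low group. The Hampshire groups did not overlap, whereas the Pietrain high group spread over the range of all the other groups. All pigs of Hampshire low lay above all pigs of Pietrain low.

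In Hampshire, 3 of the 9 genes were lower in the high group and none was higher. CACNA2D1 was 6.31-fold lower (log2 fold change -2.66, SE 0.197, adjusted p = 0.000841), TRDN 2.91-fold lower (-1.54, SE 0.188, adjusted p = 0.00215) and SRL 1.80-fold lower (-0.85, SE 0.168, adjusted p = 0.00945). These 3 genes made up 33.3% of the 9, where 26.6% of all 12228 tested genes were called in either direction and 14.6% were called lower. The median log2 fold change of the 9 genes was -0.42, against 0.03 for all tested genes. High and low groups lay apart for 5 of the 9 genes, or 55.6%, against 45.9% of all tested genes. The 3 calls held in all 6 fits that left out 1 pig.

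The release channel, the pump and junctophilin did not pass the test in Hampshire. RYR1 had a log2 fold change of -0.42 (SE 0.246, adjusted p = 0.234), ATP2A1 of -0.40 (SE 0.216, adjusted p = 0.193) and JPH1 of -0.55 (SE 0.188, adjusted p = 0.0568). JPH1 passed with DESeq2 (adjusted p = 0.0260), when every pig had to hold at least 10 counts (0.0305) and without Hampshire high pig 8 (0.0352). CACNA1S (-0.16), CASQ1 (-0.16) and CACNB1 (0.23) had the smallest log2 fold changes of the 9 genes.

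Other genes moved with loin weight in Hampshire as well. All 5 matched slow fibre markers were called higher in the high group (median 2.06 on the log2 scale), as were 3 of 5 fibroblast markers, 1 of 2 adipocyte markers and 1 of 3 macrophage markers. The muscle transcript CKM was called higher (0.98) and NEB (-1.29) and the fast myosin MYH1 (-1.25) were called lower. MYH1 was the 1 called gene of 4 matched fast fibre markers, which did not share a direction. Of the others, TNNC2 (0.72) and MYLPF (0.66) had positive log2 fold changes and PVALB (-1.45) a negative one. The MYH1 and MYH7 identifiers carry the names of near-identical family members in the reference table, so that their reads are uncertain. In whole muscle, fewer fibres of a type and less RNA per fibre cannot be told apart, and the part of fibre type or of other cells in the values of the 9 genes was not tested.

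In Pietrain, none of the 9 genes was called between pigs with high and low loin weight, and 0 of the 12065 tested genes (0%) were called by edgeR's quasi-likelihood test. At an unadjusted p under 0.05 there were 398 genes, and DESeq2 called 1 gene. RYR1 had a log2 fold change of 0.39 (SE 0.178, adjusted p = 0.939), the largest of the 9 genes in size. It was also the 1 gene of the 9 whose Pietrain groups did not overlap, or 11.1% of the 9 against 4.59% of all tested genes. CACNA1S (0.34, SE 0.264) and ATP2A1 (0.30, SE 0.261) had positive log2 fold changes and JPH1 (-0.24, SE 0.223) and CACNA2D1 (-0.16, SE 0.265) negative ones, none of them past the test.

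The loin weight effect was then compared between the breeds in 1 fit over all 13 pigs. It differed for CACNA2D1, by -2.46 on the log2 scale (SE 0.373, adjusted p = 0.00386), and for TRDN, by -1.43 (SE 0.310, adjusted p = 0.0166), the effect in Hampshire being the lower for both. These were 2 of 9 genes, or 22.2%, against 5.9% of the 12831 genes tested. Both calls held in all 13 fits that left out 1 pig. For RYR1, whose effects had opposite signs in the breeds, the difference was -0.78 (SE 0.297, adjusted p = 0.141), and the test was not passed. SRL had a difference of -0.91 (SE 0.374, adjusted p = 0.168), which passed only without Pietrain high pig 6 (adjusted p = 0.0199).

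**Figure D2:**
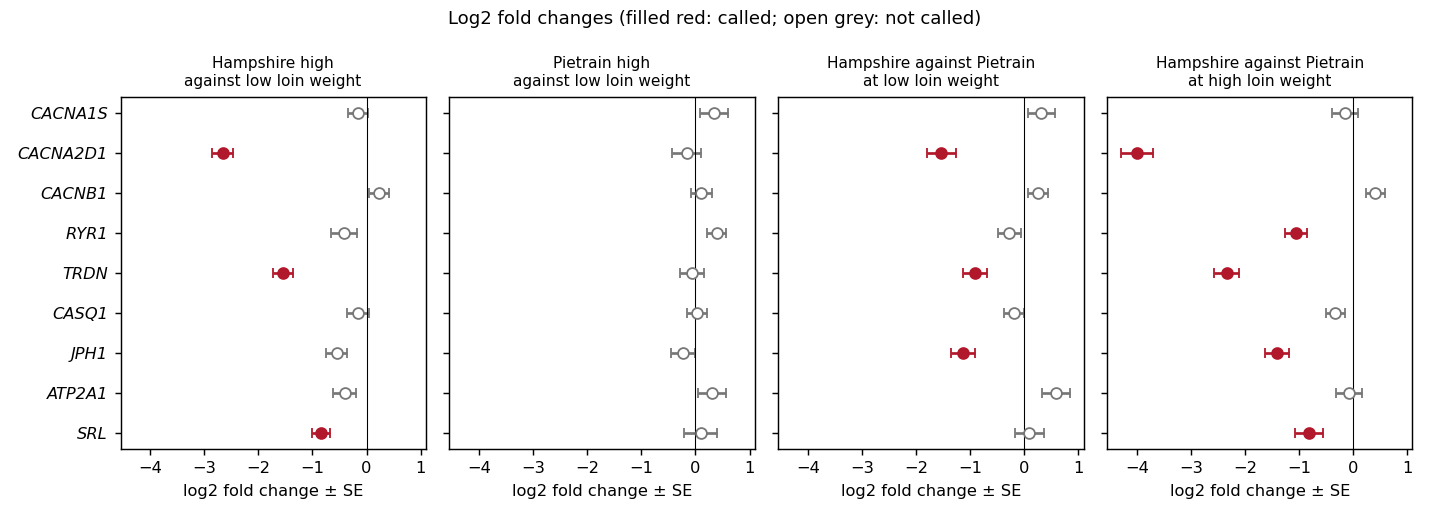
Log2 fold changes with their SE (horizontal axes) of the 9 genes in 4 comparisons between groups, the first group named against the second. Filled red points were called and open grey points were not; CACNA2D1 lies farthest from 0 in Hampshire (-2.66) and in both comparisons of the breeds (-1.54 and -4.00), and no point is filled for Pietrain.

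At low loin weight, 3 of the 9 genes were lower in Hampshire than in Pietrain, or 33.3% against 17.9% of all 12831 tested genes. CACNA2D1 was 2.90-fold lower (log2 fold change -1.54, SE 0.270, adjusted p = 0.00889), JPH1 2.20-fold lower (-1.13, SE 0.229, adjusted p = 0.0122) and TRDN 1.88-fold lower (-0.91, SE 0.226, adjusted p = 0.0205). RYR1 had a log2 fold change of -0.28 (SE 0.216, adjusted p = 0.366). ATP2A1 had one of 0.59 (SE 0.251, adjusted p = 0.111), and it passed when only the 2 groups compared were fitted (adjusted p = 0.0394). The calls changed when 1 pig was left out, while the log2 fold changes stayed between -1.57 and -1.46 for CACNA2D1, between -1.30 and -0.92 for JPH1 and between -0.99 and -0.69 for TRDN. CACNA2D1 missed the threshold in 1 of the 6 such fits, without Hampshire low pig 2 (adjusted p = 0.0514). None of the 9 genes was called without that pig, and 1 was called without Pietrain low pig 5, whose slow fibre markers stood apart, or without Pietrain low pig 8. The calls over all genes fell from 2300 to 109 without Hampshire low pig 2, to 501 without Hampshire low pig 3, to 163 without Pietrain low pig 5 and to 111 without Pietrain low pig 8. Without Hampshire low pig 3, TRDN lost its call (adjusted p = 0.0588).

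At high loin weight, 5 of the 9 genes were lower in Hampshire, or 55.6% against 46.8% of all 12831 tested genes. CACNA2D1 was 15.98-fold lower (log2 fold change -4.00, SE 0.294, adjusted p = 2.65e-06), TRDN 5.07-fold lower (-2.34, SE 0.228, adjusted p = 8.94e-06) and JPH1 2.65-fold lower (-1.40, SE 0.221, adjusted p = 0.000247). RYR1 was 2.08-fold lower (-1.06, SE 0.207, adjusted p = 0.00112) and SRL 1.76-fold lower (-0.81, SE 0.259, adjusted p = 0.0192). The pigs did not overlap for the first 4 of these genes, whereas SRL overlapped through Pietrain high pig 6. SRL lost its call without Hampshire high pig 8 (adjusted p = 0.0562) or pig 10 (0.0555), and the other 4 genes kept theirs in all 7 fits that left out 1 pig. CACNB1 was higher in Hampshire without overlap but was not called (log2 fold change 0.40, SE 0.173, adjusted p = 0.0680). The share of all tested genes without overlap was not counted for this comparison, so that these gaps have no background to be set against. The comparisons at low and at high loin weight use the same pigs as the comparisons within the breeds. Macrophage markers also differed between the breeds, with 2 of 3 called higher in Hampshire at low loin weight and 3 of 3 at high loin weight, at summed levels of at most 46.8 CPM. At high loin weight, the fibroblast markers COL1A2 (log2 fold change 1.36), COL3A1 (1.03) and DCN (1.31), 3 of 5 matched, were called higher in Hampshire, and none of the 5 was called at low loin weight. Of 5 skeletal muscle markers, ACTA1 (1.23), CKM (1.36) and MYOD1 (1.71) were called higher and NEB (-1.71) lower at high loin weight, and MYOD1 (1.84) higher and NEB (-0.74) lower at low loin weight. Of 4 matched fast fibre markers, TNNC2 (0.86) was called higher in Hampshire at high loin weight and the other 3 were not called. None of the 4 was called at low loin weight. The part of these markers in the values of the 9 genes was not tested.

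The length of a gene on the chromosome moved with these differences. The authors' tables gave positions on Sscrofa10.2 for 6 of the 9 genes. RYR1 lies at chr6:42840240-42960106 (119.9 kb), CACNA2D1 at chr9:108068516-108551541 (483 kb) and JPH1 at chr4:67243406-67423310 (179.9 kb). CACNB1 lies at chr12:23491239-23513358 (22.1 kb), ATP2A1 at chr3:18733279-18753571 (20.3 kb) and CASQ1 at chr4:98218159-98228804 (10.6 kb). These 6 are less than 80% of the genes, so that a check of length over the whole set is void, and values are given for single genes. Over 9975 genes with positions, log2 CPM changed, for a span 10 times longer, by -0.406, -0.497 and -0.418 in the 3 Hampshire pigs with high loin weight. The same slope was between -0.0448 and 0.0171 in Hampshire low, between -0.0174 and 0.346 in Pietrain high and between 0.166 and 0.257 in Pietrain low, so that Hampshire high lay apart from all other pigs. In Hampshire, the median log2 fold change was 0.38 for genes under 10 kb, -0.34 for genes of 100 to 300 kb and -0.27 for genes over 300 kb.

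When the trend with length was removed in each pig, the difference of CACNA2D1 in Hampshire was -2.31 (adjusted p = 0.00103) and that of RYR1 was -0.04 (adjusted p = 0.909). The value of JPH1 in Hampshire became -0.17 (adjusted p = 0.497). Between the breeds at high loin weight, CACNA2D1 became -3.58 (adjusted p = 2.42e-06), JPH1 -0.93 (0.00344) and RYR1 -0.56 (0.0373), all 3 still called. CASQ1 (-0.58, adjusted p = 0.0115) and CACNB1 (0.50, adjusted p = 0.0283) passed the test in that fit. TRDN and SRL had no positions in the tables, and the trend could not be removed for them.

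**Figure D3:**
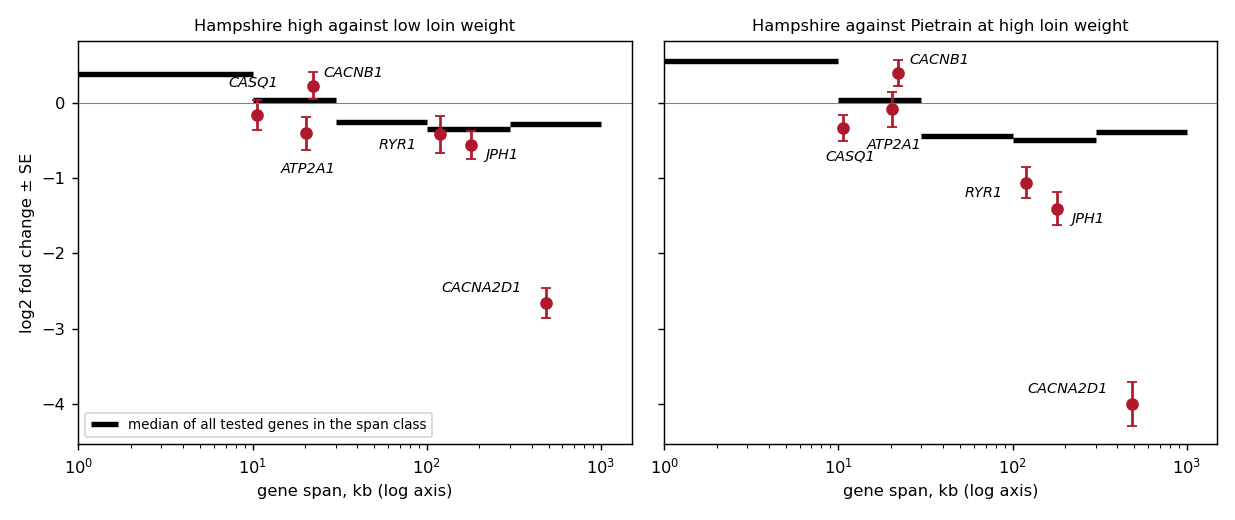
Log2 fold change with its SE (vertical axis) against gene span in kb (log axis) for the 6 triad genes with positions, in Hampshire high against Hampshire low and in Hampshire against Pietrain at high loin weight. Black lines give the median of all tested genes in 5 classes of span; in Hampshire RYR1 (-0.42) lies near the line of its class (-0.34) and CACNA2D1 (-2.66) far below its own (-0.27).

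Ratios of transcripts within a pig do not depend on the scaling between libraries. They can still carry the trend with gene length. It could not be removed here, because every ratio holds CACNA1S or TRDN, which had no positions. Of 6 planned ratios, 2 had both genes matched, and the ratios of CACNA2D1 and CACNB1 to CACNA1S were added after the values were seen. The log2 ratio of RYR1 to CACNA1S, the release channel to the voltage sensor, was 2.05, 1.25 and 2.09 in Hampshire high and 2.15, 1.98 and 2.17 in Hampshire low. In Pietrain it was 2.72, 2.99, 3.09 and 2.36 in the high group and 2.74, 2.60 and 2.73 in the low group. All 6 Hampshire pigs had a lower ratio than all 7 Pietrain pigs. The difference between the breeds was -0.99 at high loin weight (exact permutation p = 0.0571, two-sided, adjusted p = 0.16) and -0.59 at low loin weight (exact permutation p = 0.1, adjusted p = 0.16).

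The log2 ratio of TRDN to CASQ1 lay between -6.83 and -6.52 in Hampshire high, between -5.41 and -5.06 in Hampshire low, between -4.91 and -4.17 in Pietrain high and between -4.80 and -4.44 in Pietrain low. It differed by -1.38 between the Hampshire groups (exact permutation p = 0.1, adjusted p = 0.16) and by -0.08 between the Pietrain groups (exact permutation p = 0.686). The ratio of CACNA2D1 to CACNA1S differed by -2.50 in Hampshire and by -3.82 between the breeds at high loin weight, in both cases without overlap. With 3 pigs against 3 the smallest p that the exact permutation test can give is 0.1, and with 4 against 3 it is 0.0571, so that no ratio could pass 0.05.

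**Figure D4:**
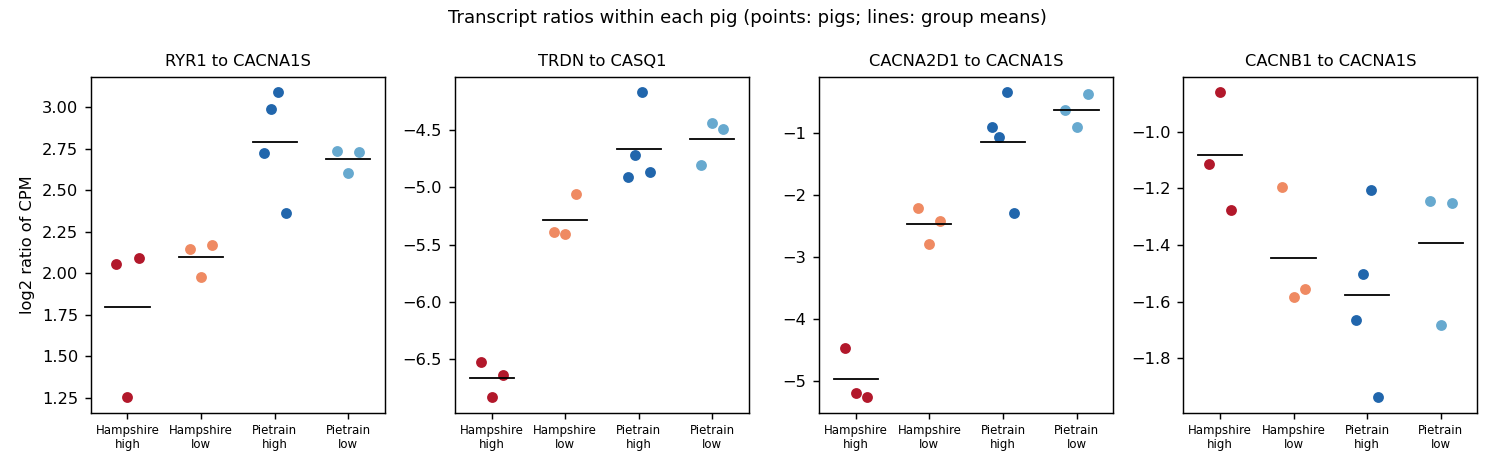
Log2 ratio of the CPM of 2 transcripts within each pig (vertical axes) in the 4 groups. Points are pigs and lines are group means; the RYR1 to CACNA1S ratio is lower in all Hampshire pigs (at most 2.17) than in all Pietrain pigs (at least 2.36).

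The 9 genes did not vary as 1 block across the pigs. Over the 13 pigs, which share their libraries, Pearson's r of log2 CPM between pairs of the 9 genes ranged from -0.75 (CACNB1 and TRDN) to 0.97 (CACNA2D1 and TRDN), with a median of 0.38 over 36 pairs. On deviations from the 4 group means it ranged from -0.81 (TRDN and SRL) to 0.84 (CACNA1S and ATP2A1), with a median of 0.22. CACNA2D1 and TRDN thus shared their differences between groups, and CACNA1S and ATP2A1 varied together within groups. RYR1 had an r of 0.82 with TRDN, 0.80 with CACNA2D1, 0.77 with JPH1 and 0.25 with CACNA1S over the 13 pigs. The order changed on deviations from the group means, with 0.31 for TRDN, 0.13 for CACNA2D1, 0.20 for JPH1 and 0.51 for CACNA1S. Of 9814 genes with a symbol, those most like RYR1 over the 13 pigs were MCM3AP (0.92), SNRNP200 (0.91), UBE4B (0.91), SVIL (0.90) and TBC1D4 (0.89). On deviations from the group means they were SGSM2 (0.94), FAM189A2 (0.92), TBC1D9B (0.90), NOM1 (0.90) and EIF4G1 (0.90). None of the other 8 triad genes was among either group of 5.

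Around these genes, 100 further genes of muscle calcium handling and excitability were listed, of which 77 matched an identifier. In Hampshire, 4 were called higher and 15 lower in pigs with high loin weight of 70 tested, which is 27.1% against 26.6% of all genes, a share near the background. Calcium sensing enzymes had 4 of 7 genes lower, or 57.1% of that list. The calcineurin subunit PPP3CA had mean levels of 6.73 against 35.8 CPM (log2 fold change -2.41, SE 0.248, adjusted p = 0.00128). CAMK2D, CAMK2G and PPP3CB were the others, with log2 fold changes of -1.21, -0.61 and -0.71. In the list of store-operated entry and plasma membrane calcium, 3 of 11 genes were called, all lower. That is 27.3% of the list, near the 26.6% of all genes called in either direction, with 14.6% of all genes called lower. The 3 genes encode plasma membrane calcium pumps: ATP2B1 (-2.22, adjusted p = 0.00118), ATP2B2 (-1.51, adjusted p = 0.0146) and ATP2B4 (-1.76, adjusted p = 0.00881). The fourth pump gene of the list, ATP2B3, had a log2 fold change of -0.23 (adjusted p = 0.420). None of the 11 genes was higher.

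Relatives of the DHPR and of the release channel changed in both directions in Hampshire. Called were 50% of the 4 tested DHPR relatives and 16.7% of the 12 tested release channel relatives and regulators, against 26.6% of all genes. CACNG1, the gamma subunit of the muscle DHPR, was called higher (log2 fold change 0.72, SE 0.158, adjusted p = 0.0134), and its relative CACNG6 was called lower (-0.73, SE 0.203, adjusted p = 0.0305). The CACNG1 call was lost without Hampshire low pig 3 (adjusted p = 0.0592) and in 1 fit over all groups (0.143), and that of CACNG6 in 4 of the 6 fits that left out 1 pig. Of 12 release channel relatives and regulators, HOMER1, a scaffold that binds ryanodine receptors, fell by 0.99 on the log2 scale (SE 0.194, adjusted p = 0.00906), and the IP3 receptor ITPR2 fell by 1.33. HOMER1 missed the threshold with the length trend removed (adjusted p = 0.0547). FKBP1A, which binds and stabilizes RYR1, had a log2 fold change of 0.12 (SE 0.168, adjusted p = 0.624).

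In the sarcoplasmic reticulum list, 2 of 12 genes were called higher and 2 lower, or 33.3% of the list against 26.6% of all genes. ATP2A3, a calcium pump, was higher (log2 fold change 1.30, adjusted p = 0.0118, and 0.0565 without Hampshire low pig 3), as was ASPH (0.80). The chaperone CANX (-0.84, adjusted p = 0.00855) and SYPL2 (-0.81, adjusted p = 0.00989) were lower. Sarcolipin (SLN), an inhibitor of the calcium pump, had a log2 fold change of 0.69 (SE 0.292, adjusted p = 0.107), which passed with DESeq2 (0.0365). JPH4 was the 1 called gene of 7 in the T-tubule list, at mean levels of 1.38 against 0.319 CPM, and it lost its call in 3 of the 6 fits that left out 1 pig. The mitochondrial calcium channel MCU fell by 1.05 on the log2 scale (adjusted p = 0.00469), 1 of 7 genes of its list. Of 10 genes of membrane excitability, the potassium channel subunit ABCC9 (-1.61, adjusted p = 0.00182) and the muscle sodium channel SCN4A (-0.68, adjusted p = 0.0434) were lower. SCN4A kept its call in only 1 of the 6 fits that left out 1 pig. The called share was 14.3% of the T-tubule list, 14.3% of the list with MCU and 20% of the excitability list.

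In Pietrain, 0 of the 67 tested genes of these lists were called. Of the role genes, CACNG1 had a log2 fold change of 0.41, FKBP1A of -0.05, SLN of -0.19 and SCN4A of 0.18. Between the breeds at low loin weight, 5 genes were higher and 7 lower in Hampshire of 71 tested, which is 16.9% against 17.9% of all genes. S100A1, a calcium sensor that binds RYR1, was higher in Hampshire (log2 fold change 2.47, SE 0.458, adjusted p = 0.0102), whereas HOMER1 (-1.06), the sodium pump subunit ATP1B1 (-1.06), PPP3CB (-0.90), SLN (-0.91) and MTMR2 (-0.65) were lower. STIM1, the calcium sensor of store-operated entry, was higher (0.90, adjusted p = 0.0308), as was DNM2 (0.70). Each of these 8 genes lost its call in 2 to 5 of the 6 fits that left out 1 pig. CACNG1 (0.86), FKBP1A (-0.02) and SCN4A (0.39) were not called.

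At high loin weight, 9 genes of the lists were higher and 13 lower in Hampshire of 71 tested, which is 31.0% against 46.8% of all genes. The 3 channel genes ORAI1 (log2 fold change 1.44), ORAI2 (1.17) and ORAI3 (0.90), which form the pore of store-operated entry, were higher. ATP2B1 (-2.96), ATP2B2 (-1.36) and ATP2B4 (-1.99) were lower. These were the 6 called genes of 11 in their list, or 54.5% against 46.8% of all genes. ATP2B3 had a positive log2 fold change (0.81, adjusted p = 0.0550) and was not called. S100A1 (2.21), CACNG1 (1.205), ATP2A3 (1.76), CHRNE (1.94) and BIN1 (0.39), which shapes T-tubules, were higher as well. PPP3CA (-2.72), ABCC9 (-1.96), HOMER1 (-1.68), MCU (-1.26), CANX (-1.13) and MTMR2 (-0.56) were lower. BIN1 and CHRNE lost their calls in 6 of the 7 fits that left out 1 pig. MTMR2 lost its call without Hampshire high pig 10 (adjusted p = 0.0526) and with the length trend removed, where its log2 fold change was -0.055 (adjusted p = 0.788). FKBP1A (0.20), SLN (0.00) and SCN4A (-0.45) were not called. Over all lists the loin weight effect differed between the breeds for 8 of 71 genes, or 11.3% against 5.9% of all genes. The effect was lower in Hampshire for all 8, as it was for 542 of the 757 genes that passed over the whole table.

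**Figure D5:**
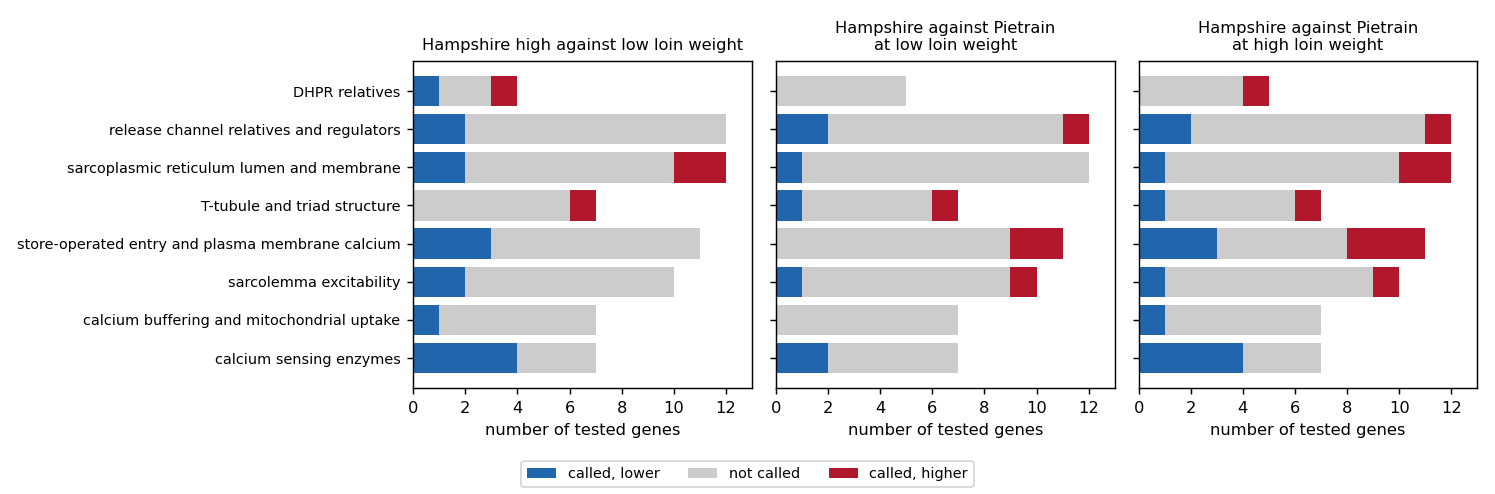
Number of tested genes (horizontal axes) called lower, not called and called higher in the first group named, in 8 lists of calcium handling and excitability genes. Calcium sensing enzymes have 4 of 7 genes lower in Hampshire high against Hampshire low and in Hampshire against Pietrain at high loin weight, with none higher. In each comparison that is 57.1% of the list, against 26.6% and 46.8% of all tested genes called in either direction.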

How the data were processed

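Libraries from longissimus lumborum of 13 pigs were made with a TruSeq RNA kit and sequenced as single-end reads in 4 technical replicates. The authors deposited raw counts per Ensembl gene for each breed, from reads aligned to Sscrofa10.2. The submitters' processing notes name FastQC, STAR, RSEM and DESeq2 without roles. The authors also deposited tables of their own DESeq2 comparison, of which other columns than gene symbols, starts and ends were not used. No value column belonged to another series.

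Of 25322 identifiers, 13168 had a symbol, 7066 of them from the authors' tables and the others from a reference table used for names only. Counts were tested in R 4.3.3 with edgeR 4.0.16 (TMM, filterByExpr by group, then glmQLFit with glmQLFTest), each breed alone for loin weight and over all 13 pigs for breed and for the difference between breeds, which was called on its adjusted p alone. Each SE is the fold change on the log2 scale divided by the square root of F. Ratios used log2 CPM with a pseudocount of 0.5 and exact two-sided permutation tests (scipy 1.17.1), adjusted over 8 tests each for the planned and for the added ratios. Plots used Python 3.11.15 and matplotlib 3.10.9. The tests were run on simulated counts with a common dispersion and without the trend with gene length. That check does not show how the tests behave on these data. Pigs of a group differed beyond sampling noise in all 15 pairs (lowest chi-square per degree of freedom 23.7), so that each was 1 replicate. The labels give the pigs as separate samples. Each edgeR test sets a difference between groups against the spread between pigs within groups, estimated with sharing of information across genes. All 4 Pietrain pigs that the labels place in the high group were used.

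The genes, lists and rules were chosen with earlier results of these data known. Named were the 9 matched genes, CACNG1, FKBP1A, SLN and SCN4A, the called gene of each list with the smallest adjusted p in each direction, and the genes most like RYR1 by Pearson's r. CASQ2, ATP2A2, JPH2, RYR3 and CLCN1 matched no identifier and were not analysed here, and 1 gene that the rule names is not reported here. Also named, after their values were seen, were CAMK2D, CAMK2G, PPP3CB, ITPR2, ASPH, SYPL2, ATP2B2, ATP2B4, ATP2B3, ORAI2 and ORAI3. The same holds for the markers ACTA1, CKM, MYOD1, NEB, MYH1, TNNC2, MYLPF, PVALB, COL1A2, COL3A1 and DCN. Alternatives were DESeq2 1.42.0, its size factors in edgeR, no filter, at least 10 counts in every pig, and other sets of groups in the fit. Others were no fold change threshold, a pseudocount of 5 for ratios, and leaving out each pig in turn. A further one removed, in each pig, the trend with gene span of the deviation of log2 CPM from the mean of the gene.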

Additional observations from a re-analysis of the deposited data

Results flagged for a closer look

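For 10 genes the loin weight effect in Hampshire differed from that in Pietrain in the test of the difference itself, over all 13 pigs, all with the lower effect in Hampshire. Of all 12831 tested genes, 757 (5.9%) passed this test, 542 of them with the lower effect in Hampshire. Among the triad genes these were CACNA2D1, with a difference of -2.46 on the log2 scale (adjusted p = 0.00386), and TRDN, with -1.43 (adjusted p = 0.0166). Among the plasma membrane calcium pumps they were ATP2B1 (-2.23), ATP2B2 (-1.85) and ATP2B4 (-1.83). The calcineurin subunit PPP3CA (-2.48), the kinase CAMK2D (-0.94), the potassium channel subunit ABCC9 (-1.71), the mitochondrial channel MCU (-1.23) and the IP3 receptor ITPR2 (-1.60) were the others. PPP3CA, ATP2B1, ABCC9, MCU, CACNA2D1 and TRDN passed in all 13 fits that left out 1 pig. ATP2B4 failed in 10 of them (adjusted p up to 0.110), ATP2B2 in 8, CAMK2D in 7 and ITPR2 in 6. With the trend of gene span removed, ITPR2 (adjusted p = 0.0620), ATP2B4 (0.0877) and CAMK2D (0.175) did not pass. No pig stood apart from its group among the 14 values of Pietrain high that could be tested for it with Dixon's test.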

How the results depend on the processing

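No paired analysis was possible because the groups compared hold different animals. Of the values of the 9 triad genes under the alternatives, 111 in Hampshire kept their direction and side of the threshold and 3, all of JPH1, passed newly. DESeq2 called 1 gene in Pietrain and 1224 genes in the difference between breeds. With the length trend removed the latter count was 479, with 9975 genes open to the test. Leaving out 1 pig moved the count of called genes to 1224 to 3049 in Hampshire (1224 without low pig 3, 1760 without high pig 10 and 2091 without high pig 9), to 109 to 2611 between breeds at low loin weight and to 379 to 1052 for the difference between breeds, where 379 was without Hampshire low pig 3. Called triad genes at low loin weight then ranged from 0 to 3.

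All results that changed sign were outside the test in the main comparison. With the length trend removed, log2 fold changes became -0.015 for CASQ1 in Pietrain, 0.050 for JPH1 in the difference between breeds, 0.092 for FKBP1A at low loin weight and -0.55 for SLN at high loin weight. In 1 fit over all groups CASQ1 in Pietrain was at -0.013. FKBP1A at low loin weight was at 0.027 with at least 10 counts in every pig. SLN at high loin weight was at -0.052 with no filter, -0.0014 with at least 10 counts and -0.0021 with only the 2 groups compared. The cause of these changes was not tested.

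Leaving out 1 pig gave, in Pietrain, -0.058 to 0.14 for CASQ1, -0.20 to 0.13 for TRDN, -0.33 to 0.0010 for CACNA2D1, -0.10 to 0.32 for SRL, -0.10 to 0.063 for FKBP1A and -0.026 to 0.43 for SCN4A. In Hampshire FKBP1A ranged from -0.060 to 0.20. At low loin weight SRL ranged from -0.090 to 0.24, FKBP1A from -0.040 to 0.089 and the ratio of CACNB1 to CACNA1S from -0.20 to 0.022. At high loin weight ATP2A1 ranged from -0.26 to 0.093, CACNA1S from -0.31 to 0.044 and SLN from -0.19 to 0.097. The difference between breeds for CACNB1 ranged from -0.079 to 0.21. The smallest count of any of the 9 genes in a pig was 166.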
